A study of Mus musculus with 17 samples.

Results

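In mouse embryonic stem cells, 9 regulators and markers of early lineages were followed, out of 47729 genes counted. They were taken from a list of symbols, matched to the Ensembl IDs of the count files through GENCODE M21. Gata4, Gata6, Sox7, Sox17, Pdgfra, Dab2 and Foxa2 belong mainly to endoderm, primitive endoderm above all, and Eomes and Mixl1 to the primitive streak. Their reads in these cultures are taken here as expression of lineage genes. Whether the reads come from cells of other lineages or from pluripotent cells was not tested.

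Polyadenylated RNA was sequenced from 17 cultures of embryonic stem cells grown in serum-free N2B27 medium, always with LIF, a cytokine that sustains self-renewal. LFAI adds FGF2 at 12 ng/ml, IWP2 at 2 uM and 20 ng/ml of human Activin A. IWP2 blocks the secretion of Wnt ligands. FGF2 and Activin A are the factors that sustain primed pluripotent cells. LIM adds IWP2 (2 uM) and the MEK inhibitor PD325901 (0.1 uM). L2i adds PD325901 (0.1 uM) and CHIR99021 (3 uM), an inhibitor of GSK3 that activates the Wnt pathway. A set of both lines, called the paired-line set here, held LFAI for 4 days, LFAI for 35 h, LIM and L2i, each as 1 R1 and 1 CGR8 library (n = 2), grown on gelatin with basement membrane extract. R1 and CGR8 LIM cells had spent 4 and 6 passages in LIM after 5 passages in 2i each. Passages in 2i were 3 and 9 before LFAI for 4 days, 9 and 7 before LFAI for 35 h, and 10 and 8 for L2i, so time in 2i differs with the medium and the effects of these cannot be told apart. A separate R1 time course held 1 library of day 0 in L2i and 1 for each of days 1 to 4 in LIM and in LFAI, on gelatin with fetal calf serum and with another sequencing protocol. Its passages in 2i were 5 at day 0, 4 on days 1 to 3 and 3 on day 4, so they fall with day and cannot be told apart from it. Each group thus rests on 1 culture per line, and p-values measure the spread between these 2 lines.

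Primitive endoderm is the layer that sorts away from the epiblast in the blastocyst and later forms the parietal and visceral endoderm of the yolk sac. Its formation needs FGF signalling through MEK and ERK, the step that PD325901 inhibits. It passes through Gata6, then Gata4, Sox17 and Sox7, while Pdgfra marks it from early on. The primitive streak forms later in the epiblast under Nodal and Wnt signals, and Eomes and Mixl1 are among its early transcription factors.

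The promoters of Dab2, Eomes and Pdgfra are shown because Dab2 and Eomes were the 2 members called higher both in LIM and after 4 days of LFAI, while Pdgfra was called lower after 4 days. Each is the 250 bases before the RefSeq start on GRCm38.p6, 5′ to 3′ on the gene's strand, at chr15:6299539-6299788, chr9:118477939-118478188 and chr5:75152001-75152250. Capitals mark a GATA site in Dab2 and CCAAT boxes in Eomes.
Dab2: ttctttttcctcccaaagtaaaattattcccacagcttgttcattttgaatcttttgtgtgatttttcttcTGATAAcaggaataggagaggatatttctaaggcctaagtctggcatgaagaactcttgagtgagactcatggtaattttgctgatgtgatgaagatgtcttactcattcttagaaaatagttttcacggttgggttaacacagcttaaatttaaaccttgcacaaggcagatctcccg
Eomes: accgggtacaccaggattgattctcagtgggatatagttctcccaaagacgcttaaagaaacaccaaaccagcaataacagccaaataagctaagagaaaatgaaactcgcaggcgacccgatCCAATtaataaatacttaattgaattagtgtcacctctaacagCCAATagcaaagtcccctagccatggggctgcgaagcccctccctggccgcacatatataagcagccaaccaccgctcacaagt
Pdgfra: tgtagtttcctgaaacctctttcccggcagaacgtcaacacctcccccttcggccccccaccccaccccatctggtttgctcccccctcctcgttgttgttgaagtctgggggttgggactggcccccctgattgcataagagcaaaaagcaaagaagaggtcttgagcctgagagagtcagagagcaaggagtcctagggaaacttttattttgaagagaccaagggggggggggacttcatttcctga
Both strands were searched for GATA sites (spelled AGATAA or AGATAG, and also TGATAA or TGATAG), for T-box sites (spelled GGTGTGA), for FOXH1 sites (spelled AATNCACA), for TCF/LEF sites (spelled ATCAAAG) and for the CCAAT box. The Dab2 window held 1 GATA site, at position -179 where -1 is the base before the start, and such a site is in 26.5% of 32851 promoter windows of this length. The Eomes window held 2 CCAAT boxes, at positions -127 and -84, and CCAAT is in 33.8% of windows. The Pdgfra window held none of these letters. T-box, FOXH1 and TCF/LEF letters, each in 3.18 to 3.33% of windows, were in none of the 3 shown. GC content was 36.8% in Dab2, 46.4% in Eomes and 54.4% in Pdgfra. These matches describe the sequence and show no binding.

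In GRCm38 coordinates, Gata4 (ENSMUSG00000021944) lies at chr14:63198922-63271692 (minus strand) and Sox7 (ENSMUSG00000063060) on the same chromosome at chr14:63943673-63950732 (plus). Gata6 (ENSMUSG00000005836) lies at chr18:11052064-11085635 (plus), Sox17 (ENSMUSG00000025902) at chr1:4490931-4497354 (minus) and Pdgfra (ENSMUSG00000029231) at chr5:75152292-75198215 (plus). Dab2 (ENSMUSG00000022150) lies at chr15:6299788-6440712 (plus) and Foxa2 (ENSMUSG00000037025) at chr2:148042877-148046969 (minus). Eomes (ENSMUSG00000032446) lies at chr9:118478212-118486132 (plus) and Mixl1 (ENSMUSG00000026497) at chr1:180693043-180697034 (minus). All are protein-coding. Gata6, Sox17, Pdgfra, Dab2 and Eomes share exon bases with other annotated genes, most of them on the opposite strand (1011 bases in Sox17). Reads in shared bases may have been counted for neither gene, and how many were lost was not tested.

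Libraries held 12889029 to 22593805 gene counts, the most in R1 L2i. Levels below are in CPM, gene counts set relative to the TMM-scaled library total, with 95% intervals that cover counting error only. Pou5f1, the defining factor of pluripotent cells, stood at 1810 and 1926 CPM after 4 days of LFAI (R1 and CGR8, the order used throughout), at 1809 and 1610 CPM at 35 h, at 1190 and 1339 CPM in LIM and at 1823 and 1378 CPM in L2i, so each of these 8 libraries carries it as an abundant transcript. Of 10 tested embryonic stem cell markers, 1 rose and 6 fell after 4 days of LFAI against L2i (21.5% and 23.3% of all tested genes). In LIM against L2i, 2 rose and 2 fell (11.3% and 7.81% of all tested genes). After 4 days of LFAI the mean of Zfp42 was 11.6 CPM, against 790 CPM in L2i. Nanog had 33.6 CPM, against 1070 CPM, and Sox2 had 87.1 CPM, against 313 CPM. Utf1 was the 1 that rose, to 486 CPM, against 86.0 CPM. In the time course, 1 library went against its label. The library labelled LFAI day 1 differed by more than 2-fold from LIM day 1 in 11 of 10578 genes and from LIM day 2 in 23, but from LFAI day 2 in 1202, where LIM days 1 and 2 differed in 52. Dusp6, an ERK target that FGF2 raises, was at 9.23 CPM in it, against 9.90 to 14.7 CPM on LIM days 1 to 4, while LFAI days 2 to 4 had 78.3 to 109 CPM. It is called the library labelled LFAI day 1 below, and statements on the LFAI course are given for days 2 to 4, with its value beside them.

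All 9 genes were low in every library. On a scale per length (RPKM), Eomes was the highest member in 16 libraries at 0.783 to 3.65 RPKM, and Mixl1 in R1 L2i at 0.862 RPKM, where the median tested gene had 4.15 to 4.98 RPKM. The highest member reached 0.106 to 0.566% of the RPKM of Pou5f1 in the same library. Summed over the 9 genes, CPM was 23.9 and 12.0 after 4 days of LFAI, 8.68 and 8.57 at 35 h, 30.9 and 23.5 in LIM, and 10.1 and 7.90 in L2i. In these 8 libraries both LIM sums were above both L2i sums, while LIM and LFAI at 4 days overlapped. In the R1 time course, which covers days in LIM and not passages, the sum was highest at day 0 in L2i. It was 25.6 CPM at day 0, 25.2, 22.0 and 23.5 CPM on LFAI days 2 to 4 (22.1 CPM in the library labelled LFAI day 1), and 20.8, 20.6, 18.0 and 20.2 CPM on LIM days 1 to 4. Day 0 thus stood above both L2i libraries of the paired-line set (10.1 and 7.90 CPM), so the sets differ in their L2i level. The endoderm members alone summed to 11.2 CPM at day 0 and 15.5, 11.1 and 15.6 CPM on LFAI days 2 to 4. They had 11.0 CPM in the library labelled LFAI day 1 and 8.03 to 10.8 CPM in LIM. Eomes and Mixl1 summed to 14.4 CPM at day 0 and 9.66, 10.9 and 7.94 CPM on LFAI days 2 to 4. Both had 11.1 CPM together in the library labelled LFAI day 1 and 9.94 to 11.9 CPM in LIM. In bulk RNA, fewer cells of a type and less RNA per cell cannot be told apart.

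**Figure D1:**
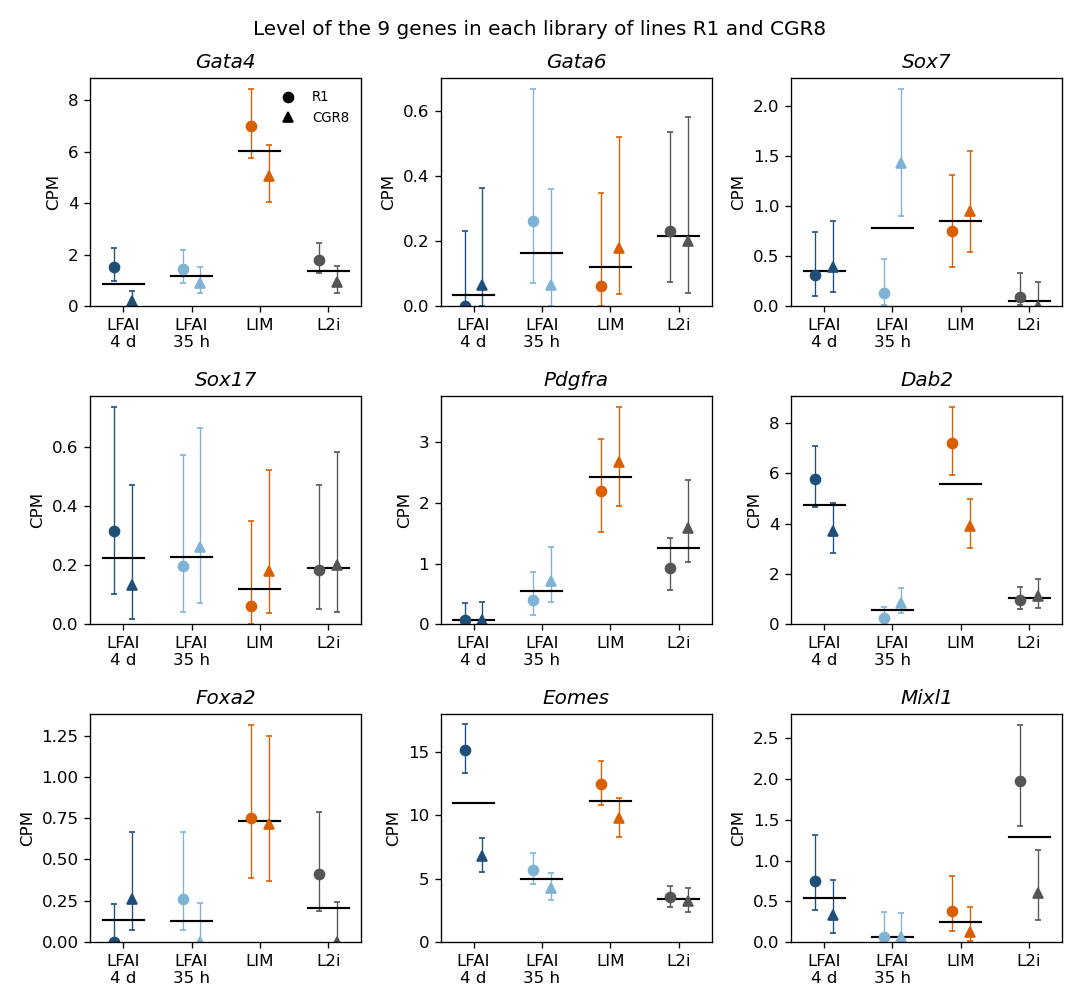
Level (CPM) of each of the 9 genes in the 8 libraries of lines R1 (circles) and CGR8 (triangles), with 95% counting intervals and the group mean as a bar. Axes differ in range. Gata4 and Dab2 stand at 3.92 to 7.20 CPM in LIM, Pdgfra is near 0 after 4 days of LFAI, and Gata6 and Sox17 reach at most 0.315 CPM.

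Genes were tested with edgeR's quasi-likelihood test over all 8 paired-line libraries, and a gene was called at a Benjamini-Hochberg adjusted p under 0.05 over 15525 tested genes. Of the 9 members, 7 passed the filter on low counts. Gata6 and Sox17 did not, with 0 to 5 counts in each of the 8 libraries. Errors of log2 folds are SE and errors of means are SD (n = 2). Every comparison with L2i shares the L2i libraries.

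LIM and L2i share the MEK inhibitor and differ in the Wnt arm. Dab2 and Eomes were called higher in LIM and no member was called lower (by DESeq2, 3 higher and 0 lower, and at an unadjusted p under 0.05, 4 higher and 1 lower). That is 2 of 7 tested members, where 11.3% of all tested genes were called higher and 7.81% lower. In either direction edgeR called 19.1% of genes. DESeq2 called 12.5% of genes higher and 9.46% lower (22.0% in all). The median log2 fold of the tested members was 1.70, against 0.01 over all tested genes. It takes in Foxa2 and Sox7, whose way through the filter on low counts is given below.

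Dab2, an endocytic adaptor that primitive endoderm switches on as it matures, had 7.20 and 3.92 CPM in LIM, against 0.965 and 1.13 CPM in L2i. Both LIM libraries were above both L2i libraries. Its log2 fold was 2.41 ± 0.57 (adjusted p = 0.0199, edgeR). Eomes, a T-box factor that Nodal induces in the streak and that trophoblast also uses, had 12.5 and 9.75 CPM in LIM, against 3.54 and 3.25 CPM in L2i, again with no overlap. Its log2 fold was 1.70 ± 0.41 (adjusted p = 0.0207, edgeR). Both calls were lost without R1 L2i (log2 2.29 for Dab2 and 1.77 for Eomes), without CGR8 L2i (2.51 and 1.64) and without R1 LIM (1.91 and 1.52).

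Gata4, a zinc finger factor of primitive endoderm, had 7.01 and 5.05 CPM in LIM, against 1.79 and 0.930 CPM in L2i. The groups did not overlap, yet its log2 fold of 2.12 ± 0.73 missed the threshold (adjusted p = 0.0759, edgeR). With the cell line as a block it was called (2.22, adjusted p = 0.0196, edgeR). Sox7, an HMG-box factor of the same lineage, had 0.751 and 0.951 CPM in LIM, against 0.0919 and 0 CPM in L2i. This is 28 counts against 2, a ratio of 15.7 (3.96 to 136 by counting error, adjusted p = 0.0723, edgeR). Pdgfra, a receptor of platelet-derived growth factor, had 2.19 and 2.68 CPM in LIM, against 0.919 and 1.59 CPM in L2i, and its log2 fold of 0.96 ± 0.55 was not called (adjusted p = 0.259, edgeR). Foxa2, a forkhead factor of visceral and definitive endoderm, had 0.751 and 0.713 CPM in LIM, against 0.414 and 0 CPM in L2i. With Dab2 and Eomes, these make 6 tested members with both LIM libraries above both L2i libraries, as 31.1% of all tested genes had. Foxa2 passed the filter on low counts through LIM (12 counts in each library), and Sox7 through LIM and CGR8 at 35 h. Their place among the 6 is thus no separate support. Gata6 and Sox17, which did not pass, were lower in both LIM libraries than in both L2i libraries, on few counts.

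Mixl1, a homeobox factor of the streak, stood lower in both LIM libraries, as did 29.8% of all tested genes, with 0.376 and 0.119 CPM in LIM, against 1.98 and 0.598 CPM in L2i. Its log2 fold of -2.38 ± 0.88 was not called (adjusted p = 0.0952, edgeR). Mixl1 passed the filter on low counts through R1 L2i (43 counts) and R1 LFAI at 4 days (12 counts). Its lower level in LIM is thus no separate support. Gata6, which initiates the primitive endoderm programme, had 4 counts in LIM, against 8 in L2i. Sox17, a close relative of Sox7 that also marks definitive endoderm, had 4 counts in LIM, against 7 in L2i. The counting intervals of both ratios hold 1 (0.124 to 2.10 for Gata6 and 0.138 to 2.52 for Sox17), so at this depth no difference was detectable.

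Other genes of primitive and extraembryonic endoderm stood higher in LIM more often than lower. Of 25 tested genes on a list of 30, 9 rose and 1 fell (11.3% and 7.81% of all tested genes), with a median log2 fold of 1.15. Lrp2, the endocytic receptor megalin, rose to 282 ± 91.4 CPM in LIM, against 20.5 ± 6.91 CPM in L2i (log2 3.77 ± 0.28, adjusted p = 0.000213, edgeR). Col4a1, a basement membrane collagen, rose to 125 ± 2.65 CPM in LIM, against 8.73 ± 2.21 CPM in L2i, and the FGF receptor gene Fgfr2 to 118 ± 29.8 CPM, against 17.0 ± 0.728 CPM. Pth1r, a hormone receptor of parietal endoderm, stood at 18.7 and 7.61 CPM in LIM, against 0.322 and 0.133 CPM in L2i. Nid1, which encodes the basement membrane protein nidogen, fell to 164 ± 7.75 CPM in LIM, against 535 ± 24.2 CPM in L2i. Nid1 and Rhox5 (101 ± 19.9 CPM in L2i) were abundant in L2i itself, so the list is not limited to endoderm in these cells. The late visceral endoderm genes Afp and Ttr held 9 and 0 counts over the 8 libraries.

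Streak, mesoderm and definitive endoderm genes had no common direction in LIM. Of 22 tested genes on a list of 30, 4 rose and 4 fell, with a median log2 fold of 0.05. Cdx1, Cdx2 and Nkx1-2, posterior genes that Wnt activates, fell, while Otx2, a factor of the anterior epiblast, rose to 213 ± 81.3 CPM in LIM, against 9.70 ± 3.38 CPM in L2i. Markers of other cell types also moved. Of 9 tested trophoblast markers 5 rose and 2 fell, and of 6 tested fibroblast markers 3 rose and none fell. Summed trophoblast markers stood at 173 and 135 CPM in LIM, against 126 and 117 CPM in L2i, and fibroblast markers at 22.3 and 34.4 CPM, against 9.05 and 10.8 CPM. The trophoblast rise was in part keratins (Krt18 at 37.9 and 26.8 CPM in LIM, against 1.79 and 1.13 CPM in L2i). Hand1 (56 counts in LIM, against 0), Ascl2 (9.11 ± 5.27 CPM, against 1.76 ± 0.238 CPM) and Esx1 (6.53 ± 0.239 CPM, against 1.47 ± 0.390 CPM) rose too. Elf5 was at most 0.357 CPM, and Cdx2 and Tfap2c fell. Cdx2 and Hand1 are on the streak list too, and Pdgfrb on both the streak and the fibroblast list. Of the fibroblast markers Fap was at 0 in both groups, Lum had 1 count in LIM and Fbn1 and Thy1 led. The part of other cells in the member values was not tested.

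LFAI for 35 h against L2i covers the first hours after the switch. Mixl1 was called lower and no member was called higher (by DESeq2, 1 lower and 0 higher, and at an unadjusted p under 0.05, 1 lower and 1 higher, Sox7). That is 1 of 7 tested members, where 7.16% of all tested genes were called lower and 7.35% higher. In either direction edgeR called 14.5% of genes. DESeq2 called 9.2% of genes higher and 8.65% lower (17.9% in all). Both 35 h libraries stood above both L2i libraries in 2 tested members (29.2% of genes) and below them in 3 (29.7%). The 2 include Sox7, which passed the filter on low counts through LIM and CGR8 at 35 h, and the 3 include Mixl1. The median log2 fold of the members was -0.76, against 0.00 over all tested genes. This median is the value of Foxa2, on 4 counts at 35 h, against 9 in L2i. Mixl1 had 0.0652 and 0.0649 CPM at 35 h, against 1.98 and 0.598 CPM in L2i. This is 1 count in each library at 35 h and 52 in all in L2i, a ratio of 0.0461 (0.00544 to 0.175 by counting error, adjusted p = 0.0329, edgeR). Of the 52 counts in L2i, R1 held 43. Mixl1 passed the filter on low counts through R1 L2i and R1 LFAI at 4 days (12 counts). As the filter admitted it in part through L2i, where it is high, the call is no separate support. The call was lost without R1 L2i (log2 -3.04), without either 35 h library (-4.17 each) and without R1 or CGR8 LFAI at 4 days (-4.17 and -4.16).

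The endoderm members kept low levels at 35 h. Gata4 had 1.44 and 0.909 CPM at 35 h, against 1.79 and 0.930 CPM in L2i, with overlapping groups. Pdgfra had 0.391 and 0.714 CPM at 35 h, against 0.919 and 1.59 CPM in L2i, and Dab2 had 0.261 and 0.844 CPM, against 0.965 and 1.13 CPM. Both genes were lower in both lines without a call (adjusted p = 0.236 and 0.387, edgeR). Sox7 had 0.130 and 1.43 CPM at 35 h, against 0.0919 and 0 CPM in L2i, and 22 of its 24 counts at 35 h came from CGR8. Its ratio was 14.4 (3.57 to 126 by counting error, adjusted p = 0.0949, edgeR). Foxa2 had 4 counts in R1 and 0 in CGR8 at 35 h, against 9 and 0 in L2i. Gata6 and Sox17 had 5 and 7 counts at 35 h, against 8 and 7 in L2i.

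Eomes had 5.68 and 4.29 CPM at 35 h, against 3.54 and 3.25 CPM in L2i. Its log2 fold of 0.55 ± 0.41 was not called (adjusted p = 0.420, edgeR). Targets of the added factors did rise in these libraries: Lefty1, a Nodal and Activin target, had a log2 fold of 3.71 ± 0.74 and Dusp6 one of 3.54 ± 0.22 (adjusted p = 0.0119 and 0.000171, edgeR). Of 15 Nodal and Activin pathway genes 5 rose and 1 fell, with a median log2 fold of 0.62. Of 12 FGF and ERK genes 6 rose and none fell, with a median of 0.99.

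Of the other primitive endoderm genes, 2 rose and 1 fell at 35 h (median log2 fold -0.38). Lrp2 and Cubn, both endocytic receptor genes, rose and Nid1 fell. Of the streak list 5 rose and 8 fell (median -1.20). The largest level on that list was that of Trh, the thyrotropin-releasing hormone gene, at 655 ± 197 CPM at 35 h, against 89.8 ± 15.0 CPM in L2i. The streak gene T stood at 0.130 and 0.195 CPM, against 2.44 and 8.43 CPM, and was called lower. Summed trophoblast markers stood at 27.9 and 33.9 CPM, against 126 and 117 CPM, and 3 of their 9 tested genes fell and none rose. Of 6 tested fibroblast markers 1 fell and none rose.

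**Figure D2:**
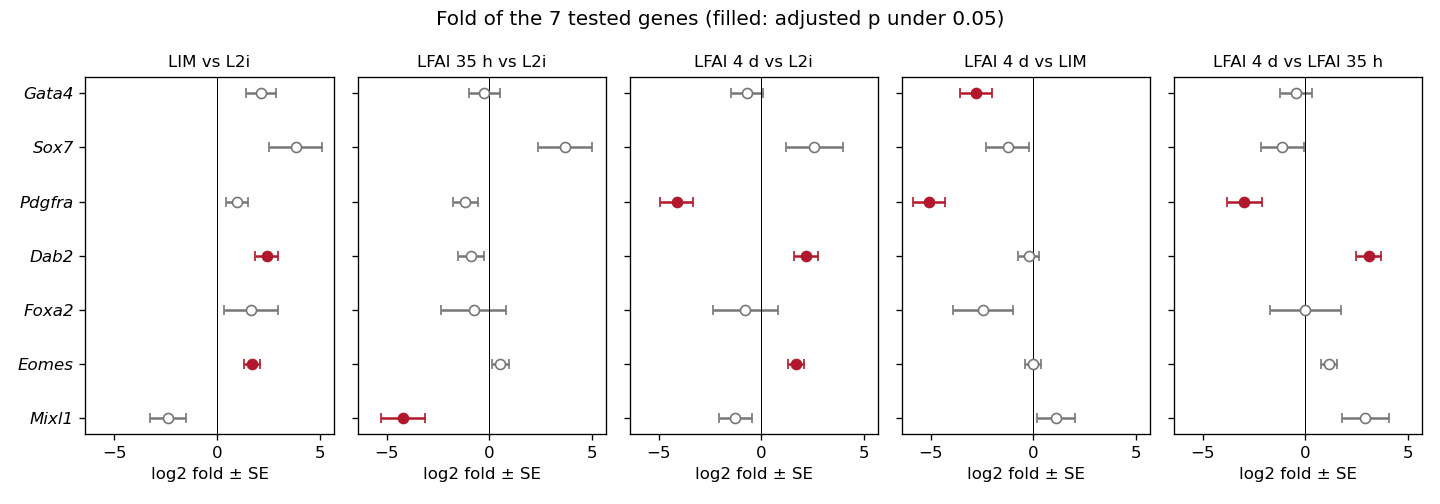
Log2 fold (with SE) of the 7 tested genes in each of the 5 comparisons, positive where the group named first is higher. Filled points have an adjusted p under 0.05 by edgeR. Dab2 and Eomes are filled to the right of 0 in LIM and in LFAI at 4 days against L2i, and Pdgfra is filled to the left in all 3 comparisons of LFAI at 4 days.

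LFAI for 4 days against L2i covers the later step. Dab2 and Eomes were called higher and Pdgfra lower. That is 2 and 1 of 7 tested members, where 21.5% of all tested genes were called higher and 23.3% lower, so the 3 members called are read against a background of 44.8% of genes in either direction, and their share does not stand clear of it. DESeq2 also called 2 members higher and 1 lower (21.5% and 23.4% of genes, 44.9% in all). The groups did not overlap in 3 tested members that were higher (36.9% of genes) and 1 that was lower (37.0%). The median log2 fold of the members was -0.68, against 0.00 over all tested genes.

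Dab2 had 5.79 and 3.72 CPM after 4 days of LFAI, against 0.965 and 1.13 CPM in L2i, and both treated libraries were higher. Its log2 fold was 2.18 ± 0.57 (adjusted p = 0.0133, edgeR). Without R1 LFAI at 4 days it was 1.84 and without R1 L2i 2.06, neither called. Eomes had 15.2 and 6.80 CPM after 4 days, against 3.54 and 3.25 CPM in L2i, and R1 stood well above CGR8 after 4 days. Its log2 fold was 1.69 ± 0.41 (adjusted p = 0.0095, edgeR). It was 1.01 without R1 LFAI at 4 days and 0.83 with the time course libraries of days 0 and 4 added, neither called.

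Pdgfra had 1 count in each library after 4 days of LFAI (0.0629 and 0.0653 CPM), against 0.919 and 1.59 CPM in L2i. The ratio of counts was 0.0536 (counting interval 0.0063 to 0.206), with an adjusted p of 0.0031 (edgeR). The call held in each alternative run, with a log2 fold of -4.13 ± 0.79 that moved to -2.63 when the time course libraries were added. Gata4 had 1.51 and 0.196 CPM after 4 days, against 1.79 and 0.930 CPM in L2i. Mixl1 had 0.755 and 0.327 CPM after 4 days, against 1.98 and 0.598 CPM in L2i, and in both genes the groups overlapped. Sox7 had 0.315 and 0.392 CPM after 4 days, against 0.0919 and 0 CPM, a ratio of 6.49 (1.42 to 60.3 by counting error, adjusted p = 0.162, edgeR). Foxa2 had 0 and 4 counts after 4 days, against 9 and 0 in L2i. Gata6 had 0 and 1 counts, against 5 and 3, and Sox17 had 5 and 2, against 4 and 3.

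The other primitive endoderm genes split after 4 days. Of 25 tested, 7 rose and 9 fell (median log2 fold 0.35). Lrp2 reached 396 ± 29.8 CPM, against 20.5 ± 6.91 CPM in L2i, and Col4a1 65.2 ± 19.6 CPM, against 8.73 ± 2.21 CPM. Nid1 fell to 9.99 ± 5.90 CPM after 4 days, against 535 ± 24.2 CPM in L2i. Srgn, a proteoglycan gene of parietal endoderm, had 0 counts after 4 days, against 139 in L2i. Of the streak list 5 rose and 11 fell (median log2 fold -1.61). Nkx1-2 and Cdx1 led the falls, while Otx2 stood at 190 ± 27.4 CPM, against 9.70 ± 3.38 CPM. Of trophoblast markers 2 of 9 rose and 3 fell, and of fibroblast markers 4 of 6 rose and 1 fell. Summed trophoblast markers stood at 367 and 124 CPM after 4 days, against 126 and 117 CPM, and Krt8 and Krt18 made up most of the R1 sum with 204 and 156 CPM. Cdx2 was at 0 in both treated libraries and Elf5 had 1 count. Summed fibroblast markers stood at 45.8 and 38.8 CPM, against 9.05 and 10.8 CPM, with Fbn1 first and Postn, Lum and Fap at 0. R1, the line with the higher keratins after 4 days, was also the line with the higher Eomes and Dab2. The part of these markers in the member values was not tested.

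LFAI for 4 days and LIM share IWP2 and differ in MEK inhibition, FGF2 and Activin A. They differ in time as well, as LIM cells had spent 4 and 6 passages in LIM, and the effects of these cannot be told apart. Pdgfra and Gata4 were called lower and no member was called higher (by DESeq2, 2 lower and 0 higher, and at an unadjusted p under 0.05, likewise 2 and 0). That is 2 of 7 tested members, where 17.2% of all tested genes were called lower and 12.3% higher. In either direction edgeR called 29.5% of genes. DESeq2 called 13.2% of genes higher and 18.0% lower (31.2% in all). Both LFAI libraries were below both LIM libraries in 4 tested members (34.9% of genes) and above them in none (33.6%). These 4 include Foxa2, which passed the filter on low counts through LIM, and Sox7, which passed through LIM and CGR8 at 35 h. The median log2 fold of the members was -1.25, against -0.02 over all tested genes. This median is the value of Sox7 itself, so it is no separate support. Pdgfra had 0.0629 and 0.0653 CPM in LFAI, against 2.19 and 2.68 CPM in LIM. With 2 counts against 80 the ratio was 0.0263 (0.00313 to 0.0981 by counting error, adjusted p = 0.0020, edgeR). The call held in each alternative run, all of them on the paired-line libraries. In the R1 time course Pdgfra was not lower in LFAI, with 0.858 CPM on LFAI day 4 and 0.680 CPM on LIM day 4 (1 library each). Gata4 had 1.51 and 0.196 CPM in LFAI, against 7.01 and 5.05 CPM in LIM. Its log2 fold was -2.80 ± 0.77 (adjusted p = 0.0257, edgeR). It was -2.0 without CGR8 LFAI, -2.56 without R1 LIM and -3.02 without CGR8 LIM, and was not called in these 3 fits.

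Dab2 and Eomes stood at like levels in both media. Dab2 had 5.79 and 3.72 CPM in LFAI, against 7.20 and 3.92 CPM in LIM (log2 fold -0.22 ± 0.52, adjusted p = 0.782, edgeR). Eomes had 15.2 and 6.80 CPM in LFAI, against 12.5 and 9.75 CPM in LIM (log2 fold -0.01 ± 0.39, adjusted p = 0.981, edgeR). A p that misses the threshold does not show that the levels are equal, and R1 was higher and CGR8 lower in LFAI for Eomes. Foxa2 had 0 and 4 counts in LFAI, against 12 and 12 in LIM, and Sox7 had 5 and 6, against 12 and 16. Both were lower in both LFAI libraries without a call. Mixl1 had 12 and 5 counts in LFAI, against 6 and 2 in LIM, with overlap. Gata6 had 1 count in all, against 4, and Sox17 had 7, against 4.

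Other primitive endoderm genes were lower in LFAI at 4 days than in LIM where they were called at all. Of 25 tested, 13 fell and none rose, with a median log2 fold of -1.08. Nid1 fell by 4.04 ± 0.44 on the log2 scale, and Rhox5, a homeobox gene of the X chromosome, by 3.85 ± 0.45 (adjusted p = 0.000379 and 0.000565, edgeR). Hnf4a, a nuclear receptor of visceral endoderm, had 0 counts in LFAI, against 124 in LIM. The streak list had 3 rises and 7 falls (median -0.92). Trophoblast markers had 1 rise and 5 falls of 9, and fibroblast markers 2 rises and no fall of 6.

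LFAI for 4 days against LFAI for 35 h gave 1 member called higher and 1 lower of 7, where 17.7% of all tested genes were called higher and 19.0% lower. In either direction 36.8% were called. DESeq2 called 2 members higher and 0 lower (17.6% and 20.1% of genes, 37.7% in all). At 4 days both libraries stood above both 35 h libraries in 3 tested members (36.7% of genes) and below them in 1 (35.6%). The median log2 fold of the members was -0.01, against 0.01 over all tested genes. This median is the value of Foxa2, on 4 counts in each group. Dab2 had 5.79 and 3.72 CPM at 4 days, against 0.261 and 0.844 CPM at 35 h. Its log2 fold was 3.09 ± 0.61 (adjusted p = 0.0050, edgeR). Pdgfra had 0.0629 and 0.0653 CPM at 4 days, against 0.391 and 0.714 CPM at 35 h, a count ratio of 0.116 (0.013 to 0.488 by counting error, adjusted p = 0.0233, edgeR). That call was lost by DESeq2 (log2 -3.12) and without R1 LFAI at 4 days (-2.94), CGR8 LFAI at 4 days (-3.01) or CGR8 at 35 h (-2.48). These 2 genes of 1 lineage thus moved in opposite directions between the same libraries.

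Eomes had 15.2 and 6.80 CPM at 4 days, against 5.68 and 4.29 CPM at 35 h, and missed the threshold at a log2 fold of 1.14 ± 0.40 (adjusted p = 0.0526, edgeR). Mixl1 had 0.755 and 0.327 CPM at 4 days, against 0.0652 and 0.0649 CPM at 35 h, a count ratio of 8.37 (1.99 to 74.7 by counting error, adjusted p = 0.0731, edgeR). With the cell line as a block both were called (log2 1.08 for Eomes, adjusted p = 0.0263, and 2.89 for Mixl1, adjusted p = 0.0426, edgeR), which makes 3 members called higher. Mixl1 passed the filter on low counts through R1 L2i and R1 LFAI at 4 days, so its call is no separate support. Gata4 had 1.51 and 0.196 CPM at 4 days, against 1.44 and 0.909 CPM at 35 h, and Sox7 had 0.315 and 0.392 CPM, against 0.130 and 1.43 CPM. Gata4 hardly differed in R1 (24 counts at 4 days and 22 at 35 h) and was lower at 4 days in CGR8 (3 and 14 counts). Sox7 moved in opposite directions in the lines, on 5 and 2 counts in R1 and 6 and 22 in CGR8. Foxa2 had 4 counts in each group, Gata6 had 1 at 4 days and 5 at 35 h, and Sox17 had 7 and 7.

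Of the other primitive endoderm genes 11 rose and 9 fell at 4 days against 35 h (median log2 fold 0.98). Lamb1 and Col4a1, both of basement membrane, rose, and Nid1 and Rhox5 fell. Of the streak list 3 rose and 6 fell (median -0.06). Trh fell to 77.2 ± 41.6 CPM at 4 days, against 655 ± 197 CPM at 35 h, and Wnt3, a streak ligand, had 113 counts at 4 days, against 1 at 35 h. Trophoblast markers had 2 rises and 2 falls of 9 and fibroblast markers 2 rises and no fall of 6.

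**Figure D3:**
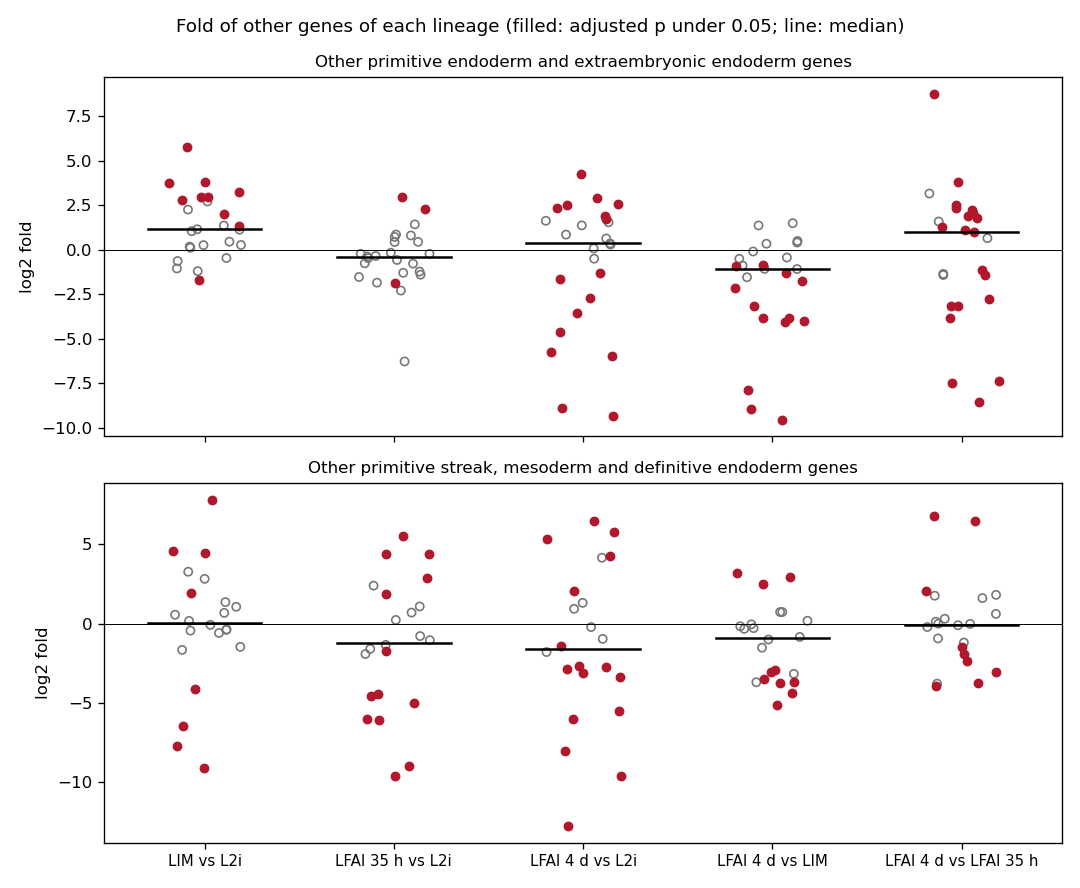
Log2 fold of each tested gene of the primitive and extraembryonic endoderm list (25 genes, top) and of the streak, mesoderm and definitive endoderm list (22 genes, bottom) in each comparison, without the 9 genes described above. Filled points have an adjusted p under 0.05 and lines are medians. The endoderm list has its highest median in LIM against L2i (1.15) and no filled point above 0 in LFAI at 4 days against LIM.

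The R1 time course followed the switch out of L2i by day, with 1 library a point and no test. Day 0 was set against the mean of the L2i libraries of the paired-line set for the members only, and not over all genes. Gata6, Sox17 and Foxa2 had 9, 7 and 2 counts at day 0. Eomes was 3.94 times the mean of these L2i libraries, Gata4 3.38 times, Dab2 3.35 times, Gata6 3.07 times, Sox17 2.67 times and Pdgfra 1.40 times. Mixl1 was 0.795 times, Foxa2 0.707 times and Sox7, with 0 counts at day 0 against 2 in L2i, was at 0. Coating, sequencing protocol and culture differ between the sets and cannot be told apart.

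Dab2 separated the media in the time course. It had 3.51 CPM at day 0. On LFAI days 2 to 4 it had 4.87, 5.20 and 10.2 CPM, and 2.56 CPM in the library labelled LFAI day 1. On LIM days 1 to 4 it had 2.30, 2.03, 1.45 and 2.12 CPM. On day 4 the counting intervals were 8.62 to 12.1 CPM in LFAI and 1.41 to 3.06 CPM in LIM, so they did not overlap. LFAI at 4 days was above its L2i libraries in both sets. In LIM, Dab2 was below day 0 on each day here, but above L2i after several passages in the paired-line set.

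Gata6 and Pdgfra had their highest levels of all 17 libraries on LFAI day 2. Gata6 had 0.658 CPM at day 0, 2.40 CPM (31 counts, interval 1.63 to 3.40 CPM) on LFAI day 2, 0.650 CPM on day 3 and 0.0715 CPM on day 4. Pdgfra had 1.75 CPM at day 0, 4.17 CPM (interval 3.13 to 5.44 CPM) on LFAI day 2, 1.01 CPM on day 3 and 0.858 CPM on day 4. The library labelled LFAI day 1 held 0.147 CPM of Gata6 and 1.47 CPM of Pdgfra, and LIM days 1 to 4 held 0 to 0.871 CPM of Gata6 and 0.612 to 1.98 CPM of Pdgfra. Of the other endoderm genes, 3 had their highest level of the course in the same library: Hnf4a at 3.09 CPM (day 0, 1.83), Cubn at 10.0 CPM (day 0, 0.438) and Rhox5 at 117 CPM (day 0, 38.4). These 3 were picked after their values were seen, and the summed level of the list did not rise. The sum was 1680 CPM on LFAI day 2, against 2178 CPM at day 0. It is weighted to genes abundant in L2i, such as Nid1 (535 CPM in L2i of the paired-line set). It thus does not describe the list genes at low levels. On LFAI day 2, 5 genes of the list had 0 counts, against 2 at day 0. Both libraries at 35 h of the paired-line set, the nearest in time, held 0.261 and 0.0649 CPM of Gata6 and 0.391 and 0.714 CPM of Pdgfra, so the maximum was seen in 1 library only. The LFAI day 2 library held 13099328 counts, within the range of the course, and its summed trophoblast markers stood at 23.6 CPM, the lowest of the course. The part of these in its values was not tested.

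Gata4 stood lower on LFAI days 2 to 4 than on the same days of LIM. It had 4.60 CPM at day 0, 2.86, 3.25 and 3.79 CPM on LFAI days 2 to 4, with 5.57 CPM in the library labelled LFAI day 1, and 4.83, 5.41, 5.51 and 4.54 CPM on LIM days 1 to 4. On day 2 the counting intervals did not overlap (2.01 to 3.94 CPM in LFAI and 4.23 to 6.81 CPM in LIM), and on days 3 and 4 they did. Eomes had 13.4 CPM at day 0, its highest of the course. It had 9.35, 9.82 and 6.72 CPM on LFAI days 2 to 4, with 9.97 CPM in the library labelled LFAI day 1, and 9.66, 9.76, 9.02 and 11.3 CPM on LIM days 1 to 4. Day 4 of LFAI was thus below day 0 here and above L2i in the paired-line set, with intervals of 5.43 to 8.23 CPM on day 4 and 11.5 to 15.5 CPM at day 0.

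The remaining members stayed near the counting limit. Sox7 had 0 counts at day 0 and on LIM days 1 to 3, which allows up to 0.219 to 0.238 CPM at 3 counts. It had 5, 4 and 4 counts on LFAI days 2 to 4, 1 in the library labelled LFAI day 1 and 1 on LIM day 4. Sox17 had 7 counts at day 0, 10, 5 and 1 on LFAI days 2 to 4, with 12 in the library labelled LFAI day 1, and 10, 5, 4 and 10 on LIM days 1 to 4. Foxa2 had 0 to 5 counts in the 9 libraries. Mixl1 had 1.02 CPM at day 0, 0.309 to 1.22 CPM on LFAI days 2 to 4, with 1.17 CPM in the library labelled LFAI day 1, and 0.396 to 1.65 CPM in LIM. T, by contrast, had 12.6 CPM at day 0 and at most 0.644 CPM in each later library.

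**Figure D4:**
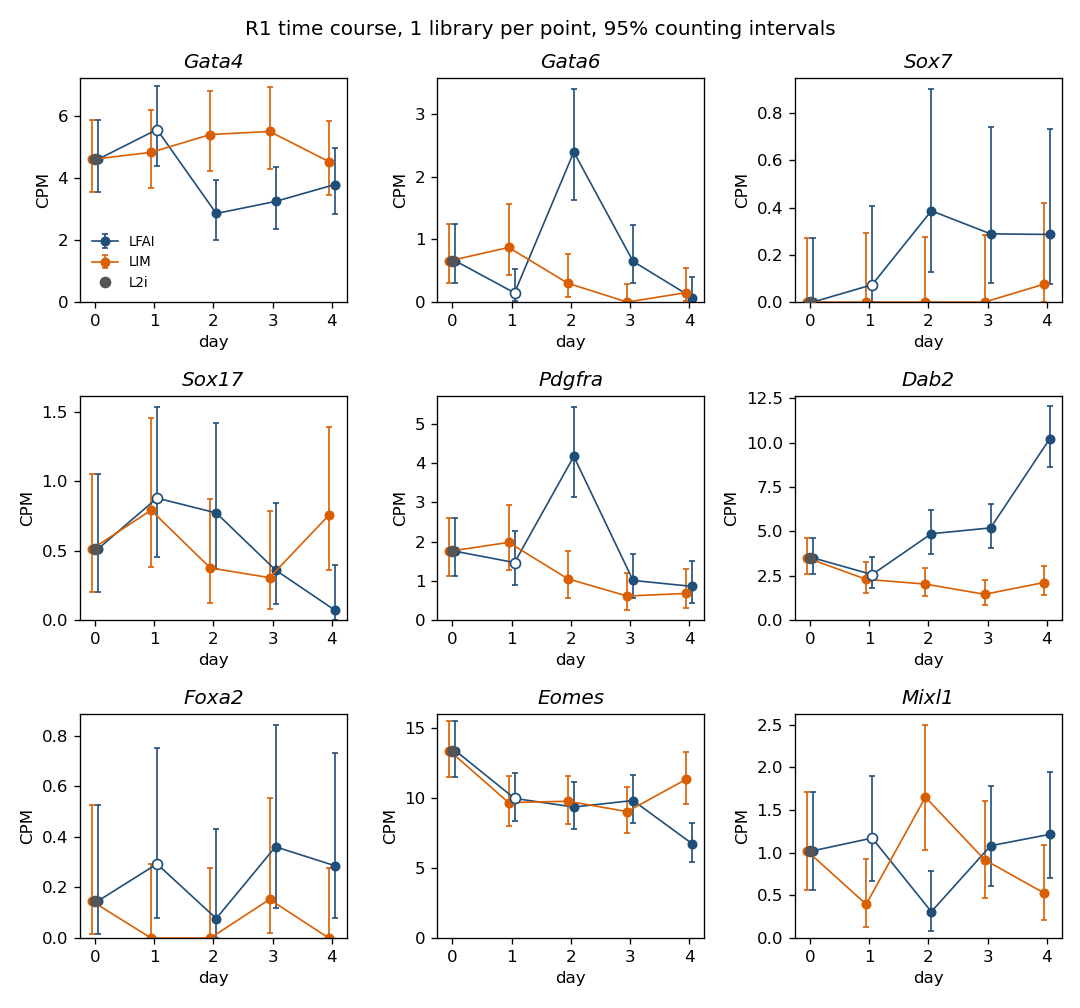
Level (CPM) of the 9 genes by day in the R1 time course, LFAI in blue, LIM in orange and L2i at day 0 in grey, 1 library per point with 95% counting intervals. The open point is the library labelled LFAI day 1. Gata6 and Pdgfra peak on LFAI day 2 at 2.40 and 4.17 CPM, and Dab2 reaches 10.2 CPM on LFAI day 4 while LIM stays at 1.45 to 2.30 CPM.

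Pearson's r of log2 CPM (prior count 2) between Dab2 and Eomes was 0.78 over the 8 paired-line libraries and -0.48 over the 9 time course libraries. Gata4 and Pdgfra had 0.71 and -0.45. These were the 2 highest r over the 8 libraries among pairs of the 7 tested members. Of 10341 named genes with a mean of at least 5 CPM, those most like Dab2 over the 8 libraries were Dzip1l (0.99), Sdc3 (0.99) and Nrk (0.98), with -0.59, -0.29 and -0.21 in the time course. The nearest to Eomes were Mvk (0.99), Tjp1 (0.97) and Wdr81 (0.97), with -0.77, -0.75 and -0.27. Gata4 was most like Hipk2 (0.98), Flii (0.96) and Peg10 (0.96), with 0.70, 0.83 and -0.93. Pdgfra was most like Kif3a (0.99), Net1 (0.98) and Abcc10 (0.98), with -0.32, -0.40 and 0.77. For Sox7, Foxa2 and Mixl1, which have few counts, the 3 nearest genes each reached 0.90 to 0.98. The libraries share lines and depths, and each r is a description.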

How the data were processed

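Counts of reads per Ensembl gene were deposited by the authors for each of 17 libraries. Per the submitters' processing notes, HISAT2 2.0.4, HTSeq 0.6.1, DESeq2 1.10.1 and the build GRCm38 (mm10) were used, and per the labels' protocols libraries were stranded and polyA-selected on a HiSeq2500. The strand setting of the counting is not given in the sources used here. Of 47729 genes, 47310 (99.12%) matched GENCODE M21, and the others held 0.0228% of counts. The 5 summary entries that name no gene were left out (47.7 to 51.9% of each file's total, most of it alignments that were not unique). No libraries were identical.

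The 8 paired-line libraries were fitted with edgeR 4.0.16 in R 4.3.3 (filterByExpr with groups, TMM, quasi-likelihood, group means, 4 residual degrees of freedom, two-sided, Benjamini-Hochberg adjustment). SEs were taken as the absolute log2 fold divided by the root of the F statistic. The block used the cell line, which pairs the samples because both lines recur in each group (r of same-line deviations 0.0409 to 0.395), leaving 3 degrees of freedom. CPM uses TMM library sizes and RPKM the summed exon length in GENCODE M21. Intervals are exact Poisson at 95% for a level and conditional binomial for a ratio of counts, and a count of 0 allows 3 counts. Library pairs were compared over genes at 10 CPM or more in any time course library, by fold in CPM plus 1. The steps were tested on simulated data.

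Alternatives were DESeq2 1.42.0 (Wald test, and its size factors in edgeR), no filter, the block, the 4 libraries compared, each library left out, and the time course libraries of days 0 and 4 added. All 9 members were described. List genes could be named if among the 4 smallest p called in a comparison, and neighbours were the 3 highest r. T, Afp, Ttr, Elf5, Lum, Fap and Postn are named as defining markers outside that rule. The members and the 7 gene lists were chosen with earlier results of these data known. Promoters come from the RefSeq table of GRCm38.p6, which held 4 of the 9 members.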

Additional observations from a re-analysis of the deposited data

Results flagged for a closer look

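Several members differed in opposite directions between the lines, or between the sets, under the same contrast. These differences were not tested, and most rest on few counts. Values are differences of log2 CPM (prior count 2).

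For LFAI at 4 days against L2i, Foxa2 differed by -2.14 in R1 and by 1.65 in CGR8, on 0 against 9 counts in R1 and 4 against 0 in CGR8. Eomes differed by 2.06 in R1 and 1.04 in CGR8 of the paired-line set but by -0.98 in the R1 time course. Mixl1 differed by -1.26 and -0.68 in the paired-line set and by 0.22 in the time course.

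For LFAI at 4 days against LIM, Eomes differed by 0.28 in R1 and by -0.51 in CGR8. For LFAI at 4 days against 35 h, Gata4 differed by 0.07 in R1 and by -1.70 in CGR8, Sox7 by 0.79 and -1.59, and Foxa2 by -1.65 and 1.65. The R1 difference of Gata4 is 24 against 22 counts, so it is hardly a difference.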

How the results depend on the processing

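With 2 libraries a group, calls depend on single libraries. Leaving out each library in turn, genes called higher and lower numbered 934 to 1690 and 505 to 1131 in LIM against L2i, 507 to 1132 and 369 to 1040 in LFAI at 35 h against L2i, 735 to 1810 and 1358 to 2650 in LFAI at 4 days against LIM, and 1440 to 2668 and 1879 to 3090 in LFAI at 4 days against 35 h. Members called numbered 0 to 3 higher in LIM against L2i, 0 to 1 lower at 35 h, 0 to 2 higher and 1 to 2 lower at 4 days against L2i, 1 to 2 lower at 4 days against LIM, and 1 to 2 higher and 0 to 1 lower at 4 days against 35 h. Of the other settings, no filter gave 4 members higher in LIM, 1 higher at 35 h (Sox7) and 2 higher at 4 days against 35 h. Only the 4 libraries compared gave 4 higher in LIM, 0 lower at 35 h (Mixl1 was filtered out) and 0 lower at 4 days against 35 h (Pdgfra was filtered out). DESeq2 gave 2 higher and 0 lower at 4 days against 35 h, the replicate block gave 3 higher there, and adding the time course libraries left 1 higher at 4 days against L2i. The block also called Gata4 in LIM against L2i and changed no other member call. Of the alternative values of member folds in the 5 comparisons, 396 kept direction and call, 17 gained a call, 22 lost it and 16 reversed.

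The reversed values were of members not called; ranges are over single libraries left out. At 35 h against L2i, Gata4 ran from -0.59 to 0.35 (without R1 L2i) and was 0.06 without CGR8 at 35 h, and Foxa2 ran from -4.95 to 4.13 and was 0.22. At 4 days against L2i, Gata4 ran from -2.76 (without R1 LFAI, called) to 0.13 (without CGR8 LFAI), and Foxa2 from -4.93 to 4.09 (without R1 L2i) and was 0.23 without R1 LFAI. At 4 days against LIM, Dab2 ran from -0.60 to 0.26 and Eomes from -0.70 to 0.44, with positive values without CGR8 LFAI (0.05 and 0.44) and R1 LIM (0.26 and 0.16). At 4 days against 35 h, Gata4 ran from -2.53 to 0.34 (without CGR8 at 4 days), Sox7 from -2.03 to 1.39 (without CGR8 at 35 h), and Foxa2 from -4.21 to 4.16 (without R1 at 35 h), and Foxa2 was 0.97 without R1 at 4 days and 0.16 with the block. The cause was not tested. Members with under 10 counts a library cannot show small differences.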
